A study of Homo sapiens with 6 samples.

Results

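The genes analysed here encode the proteins of tight junctions, desmosomes and gap junctions, together with the catenins that tie cadherins to the cytoskeleton. They were chosen by symbol, and 36 such genes were found among the 60660 genes of the count tables. They comprise 8 claudins, 3 members of the occludin family, 4 tight junction scaffolds, 4 immunoglobulin-like receptors (3 JAM genes and CXADR), 8 components of the desmosomal plaque or cell envelope, 3 desmosomal cadherins, 3 catenins and 3 connexins. RNA was sequenced from 12Z cells, an immortalized epithelial cell line derived from endometriosis, in which tissue resembling the lining of the uterus grows elsewhere in the body. In the control group (3 libraries) the cells received a non-targeting siRNA, and in the knockdown group (3 libraries) siRNA LINC01133a at 10 nM, which targets the long noncoding RNA LINC01133. Both groups were transfected with Lipofectamine RNAiMAX and lysed after 72 h, and the study calls the 3 libraries of a group biological replicates. The knockdown group rests on 1 siRNA sequence and on 1 cell line.

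Tight junctions seal the space between epithelial cells. Claudins and occludin form the seal in the membrane, ZO proteins (genes TJP1 and TJP3) and cingulins (CGN and CGNL1) link it to actin, and JAM receptors and CXADR lie beside it. Desmosomes hold cells together mechanically: desmogleins and desmocollins bridge the gap between cells, and plakoglobin (JUP), plakophilins (PKP genes) and desmoplakin (DSP) connect them to keratin filaments. Alpha-, beta- and p120-catenin (CTNNA1, CTNNB1 and CTNND1) are parts of the complexes of classical cadherins, and beta-catenin is also the transcriptional mediator of Wnt signalling. Connexins form gap junction channels that pass ions and small molecules from cell to cell. The comparison asks how the transcripts of each junction type differed between control and LINC01133 knockdown cells.

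Counts on genes ranged from 27742562 to 37551194 per library. LINC01133 itself stood at 813, 818 and 837 normalised counts in control and at 130, 131 and 138 after knockdown, 16.2% of control (log2 fold change -2.63, SE 0.070, adjusted p = 3.5e-11, quasi-likelihood test of edgeR). A normalised count is the count divided by the library's effective size relative to the mean of the 6 libraries. Of the 9 epithelial markers examined, 7 were tested and 4 were DE and lower, where 6.43% of all tested genes were (DE, differentially expressed, means a fold change above 1.5 and an adjusted p below 0.05), with KRT8, KRT18 and KRT19 among the most abundant. The 4 were CDH1, KRT7, KRT8 and KRT19. CDH1 averaged 412 normalised counts in control and 102 in knockdown (log2 fold change -2.02). The paper reports the loss of CDH1 by qRT-PCR and Western blot as well. It also states that the fall of KRT7 and KRT19 could not be reproduced in its follow-up measurements. EPCAM stood at only 13.6 ± 4.33 (SD, n = 3) normalised counts in control, KRT5 at 0 and KRT14 at 1.79 ± 1.38. The epithelial markers summed to between 201000 and 212000 normalised counts in control and to between 128000 and 134000 in knockdown. Of 10 mesenchymal or stromal markers 10 were tested and 2 were DE and lower, against the same 6.43%, with sums of 301000 to 330000 in control and 288000 to 293000 in knockdown. COL3A1, COL1A1 and VIM were among the most abundant of them, so the line carried both kinds of transcript. Endothelial markers summed to between 1590 and 1630 in control and between 1110 and 1190 in knockdown, most of it KDR, with EMCN at 0 in every control library. KDR was DE and lower (1520 ± 13.8 and 950 ± 27.9), and CDH5 was DE and higher (63.4 ± 4.56 and 174 ± 17.8, log2 fold change 1.45, adjusted p = 1.4e-06). Leukocyte markers summed to between 1620 and 1830 in control and between 847 and 908 in knockdown, almost all of it CD14, with CD3E at 0 throughout. The part that these marker differences have in the junction genes' results was not tested. In bulk RNA, fewer cells of one kind and less RNA per cell cannot be told apart.

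The siRNA is shown first, because an siRNA can also lower transcripts whose 3′ UTR pairs with bases 2 to 8 of its guide strand, the seed, which is in capitals here. The sequence is that of the oligo table of the study, and its 19-base target lies at chr1:159976669-159976687 (GRCh38, plus strand), within 1 exon of LINC01133 and in 3 of its 5 transcripts of GENCODE v44.
guide strand of siRNA LINC01133a: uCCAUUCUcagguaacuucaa
passenger strand of siRNA LINC01133a: gAAGUUACcugagaauggatt
A 7-base match to the guide's seed reads AGAATGG in the transcript, and an 8-base match has an A after it (AGAATGGA). Only the transcript's strand was searched, and each 8-base match contains a 7-base match. All 30 junction genes that entered the test have an annotated 3′ UTR. Of these, 13 (43.3%) carry the 7-base match, compared with 20.7% of 12516 tested genes with a 3′ UTR. The 8-base match is in 8 (26.7%) of the junction genes and in 7.14% of those 12516. The junction genes have longer 3′ UTRs, with a median longest 3′ UTR of 2215 bases against 1554.

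Sites from genes that were lower after knockdown (CTNNB1, PKP2, CLDN12 and GJC1) and from genes that were higher (PERP and DSC3) are shown side by side, with the match in capitals and 10 bases of the 3′ UTR on either side.
CTNNB1 at chr3:41239872-41239879, plus strand: agaatgcacaAGAATGGAtcacaagat
PKP2 at chr12:32791517-32791524, minus strand: gactagtgaaAGAATGGActctatctt
PKP2 at chr12:32791967-32791974, minus strand: gtgttgaaacAGAATGGAaatgacaag
CLDN12 at chr7:90414745-90414752, plus strand: ctgatttatgAGAATGGAcaaaagtgg
GJC1 at chr17:44800644-44800651, minus strand: gtttatacgaAGAATGGActtacatgt
PERP at chr6:138091664-138091671, minus strand: atttccaaatAGAATGGActcggtctg
DSC3 at chr18:30991722-30991729, minus strand: tattggtctgAGAATGGAattctctgt
The other two genes with an 8-base match were MARVELD2 and EVPL, neither of which passed the test. Of the 8 genes, 5 had a negative and 3 a positive log2 fold change, and their median was -0.16. The 17 tested junction genes with no 7-base match had a median of -0.11. Over all 894 tested genes with an 8-base match the median log2 fold change was -0.13, and over the 9928 with no 7-base match it was 0.0020. CGN, CXADR and GJB2 have neither match in their 3′ UTRs. A match is a run of letters and not a measured binding site, and its part in any difference below was not tested.

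Most junction genes were expressed, and their levels spanned about 4 orders of magnitude. Levels between genes are given as RPKM, that is normalised counts scaled to library size and to transcript length in kilobases, where the length is that of the canonical transcript without bases that another gene shares on the same strand. In control cells the highest levels were those of CTNNA1, with 182 ± 0.033 (SD, n = 3), CLDN11, with 178 ± 19.0, and GJA1, with 158 ± 2.56. CTNNB1 followed with 88.4 ± 1.36, CXADR with 65.8 ± 3.32, PKP2 with 57.4 ± 0.056, DSG2 with 53.6 ± 1.72 and DSC3 with 44.8 ± 3.75. CLDN11 is the claudin known from myelin and from the testis, and it was the most abundant claudin here. Of its canonical transcript, 78.6% of the bases could be counted. The control libraries of CLDN11 (158.6 to 196.6) span the levels of CTNNA1 and overlap those of GJA1 (155.4 to 160.4), so these 3 cannot be ordered with confidence. With all annotated exonic bases as the length, CTNNA1 stood at 77.3, CLDN11 at 106, GJA1 at 144, CTNNB1 at 27.5 and PKP2 at 24.6, so the order of the most abundant genes depends on the transcript assumed.

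**Figure D1:**
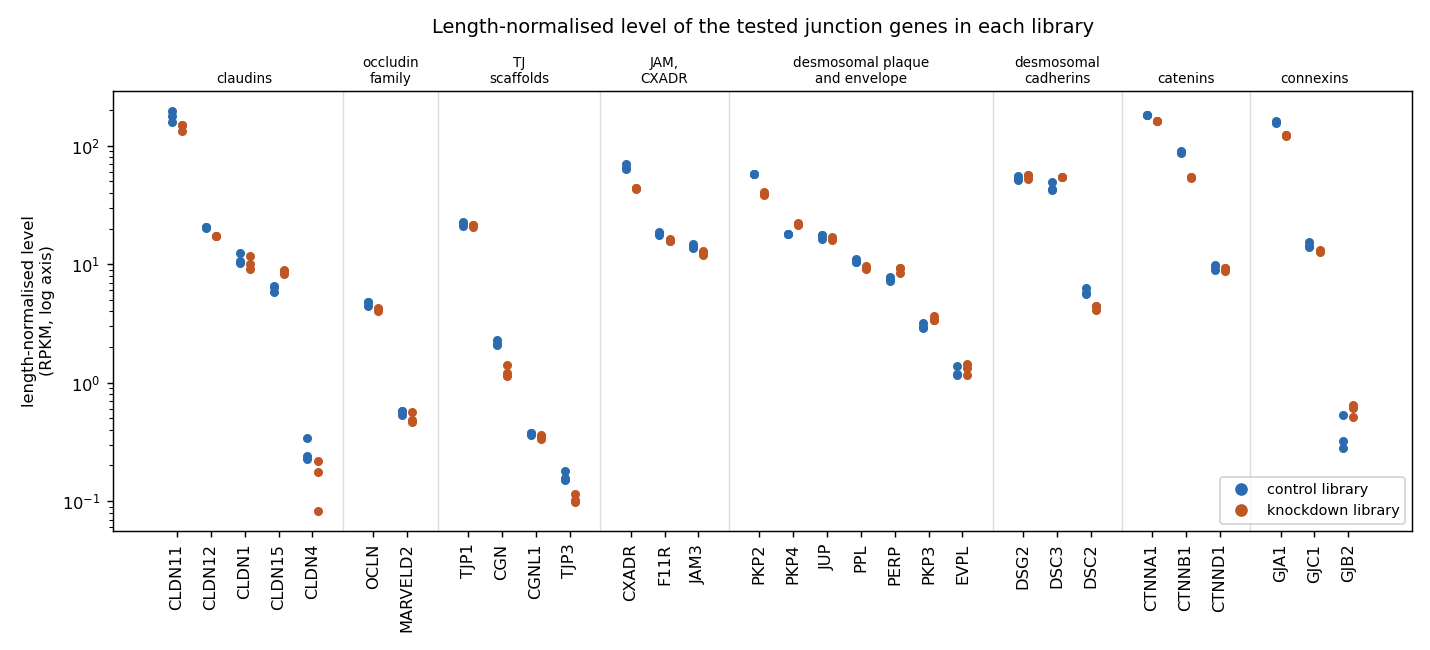
Length-normalised level (RPKM, log axis) of the 30 tested junction genes, with 1 point per library, blue for control and orange for knockdown, and the genes sorted within each junction type. CLDN11, CTNNA1 and GJA1 lie above 100 in every library, and CLDN4, TJP3, CGNL1, MARVELD2 and GJB2 lie below 1.

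At the other end, 6 of the 36 genes had too few counts to be tested: CLDN3, CLDN6, CLDN7, MARVELD3, JAM2 and DSP. DSP, the plakin that anchors desmosomes to keratin, had 33 counts over all 6 libraries, and its control level was 0.018 ± 0.0055 RPKM. The desmosomal cadherins DSG2 and DSC3 were at the same time among the most abundant junction genes. CLDN3, CLDN6 and CLDN7 had between 10 and 32 counts over the 6 libraries, and JAM2 had 23. MARVELD3, a relative of occludin, had 0 counts in every library, which allows up to 0.0799 to 0.108 CPM depending on the library (3 counts, counting error only). A further 159 counts lay on the opposite strand at this gene.

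The listed genes took up a smaller part of the libraries after knockdown. Their part of all counts was 0.388%, 0.401% and 0.387% in control and 0.353%, 0.354% and 0.351% after knockdown. The 3 knockdown values lay below the 3 control values. Of the 30 tested genes, 22 had a negative log2 fold change, and the median was -0.17, where the median over all 15155 tested genes was 0.0032.

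Differential expression (DE) required a fold change above 1.5 and an adjusted p below 0.05, the cutoffs of the study, with p-values adjusted over all 15155 genes tested. The study used DESeq2 and reported fewer DE genes, so the shares of all tested genes given here are not the study's own. CTNNB1 and CGN were DE and lower, and GJB2 was DE and higher. That is 3 of 30 tested junction genes (10%), where 11.7% of all tested genes were DE, 5.30% higher and 6.43% lower. With the adjusted p alone, 14 junction genes (46.7%) fell and 5 (16.7%) rose, against 25.0% lower and 23.3% higher among all tested genes and 48.3% in either direction. The other 11 did not pass. The libraries of both groups did not overlap for 22 junction genes (73.3%), 17 below and 5 above control, where 57.3% of all tested genes had no overlap. The genes were listed with earlier results of these data known, and the shares are given as a description.

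**Figure D2:**
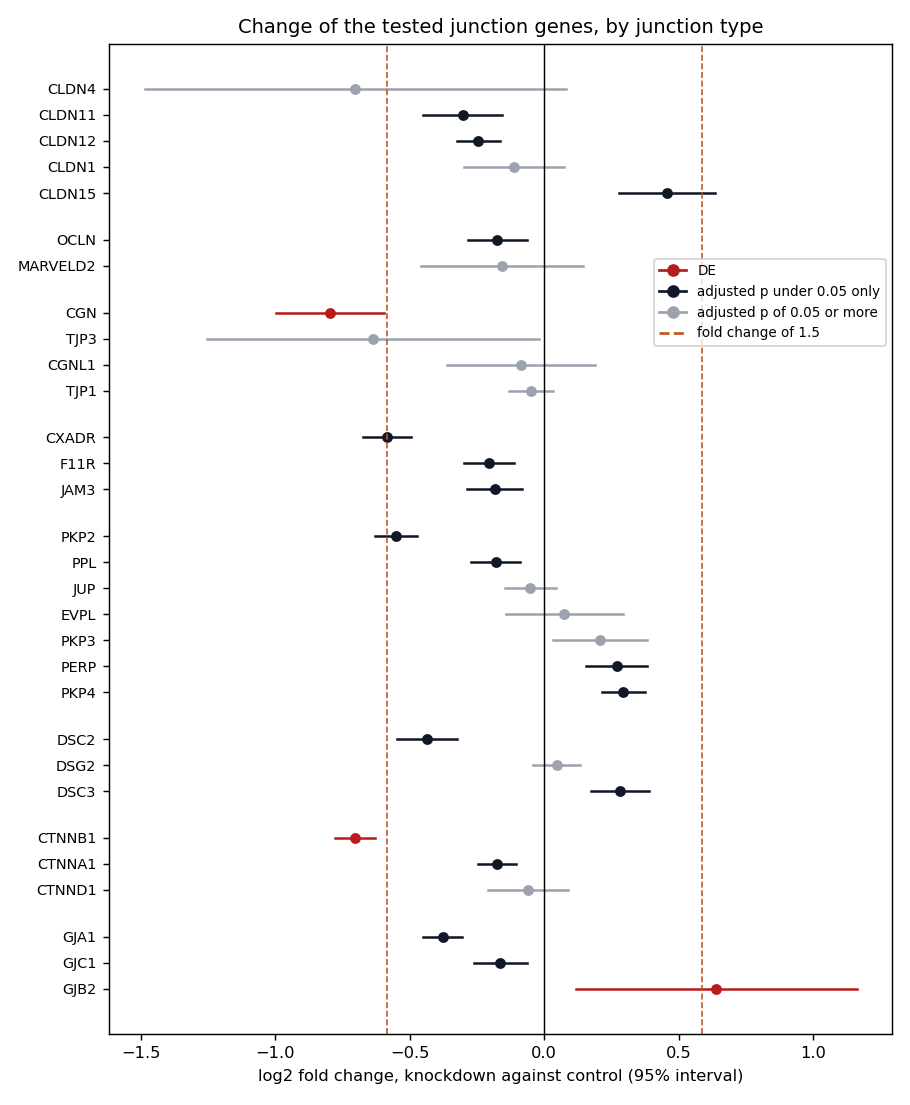
Log2 fold change of knockdown against control (horizontal axis) with its 95% interval for the 30 tested junction genes, grouped by junction type. CTNNB1 and CGN (red) lie left of the dashed line for a fold change of 1.5, GJB2 (red) lies right of it with an interval from 0.12 to 1.16, and the point of CXADR lies on the left line.

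Among the claudins, the abundant members fell and a minor one rose. CLDN11 stood at 12489, 13797 and 11127 normalised counts in control and at 10504, 10493 and 9308 in knockdown. All 3 knockdown libraries were below all 3 controls (log2 fold change -0.30, SE 0.068, adjusted p = 0.0022). CLDN12, a claudin without the usual scaffold-binding end, fell from 2230 ± 15.01 to 1882 ± 17.3 normalised counts (log2 fold change -0.25, SE 0.037, adjusted p = 0.00012). CLDN15, which forms cation-permeable pores in the intestine, moved the other way. It stood at 261, 252 and 230 in control and at 326, 352 and 344 in knockdown, with no overlap (log2 fold change 0.46, SE 0.082, adjusted p = 0.00047). CLDN1, a claudin of the epidermal barrier, did not pass (1241 ± 129 and 1153 ± 150, adjusted p = 0.31). CLDN4 was near the filter on low counts, with 13.3, 12.4 and 18.7 in control and 11.9, 9.71 and 4.54 in knockdown. Its log2 fold change was -0.70 with an interval from -1.48 to 0.079 (adjusted p = 0.13), a range that holds both 0 and the change of CTNNB1 at this depth.

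The summed level of the claudins was 83.6% of control after knockdown. CLDN11 made up 82.1% ± 1.88 of that sum in control and 79.6% ± 1.81 in knockdown, a difference within the spread between libraries. The share of CLDN15 went from 2.90% ± 0.17 to 4.77% ± 0.32, and the 2 groups of libraries did not overlap.

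Occludin (OCLN), the founding membrane protein of the tight junction, fell slightly. It stood at 893, 965 and 951 normalised counts in control and at 810, 846 and 833 in knockdown (log2 fold change -0.17, SE 0.051, adjusted p = 0.013). With library size alone as the scaling its adjusted p was 0.088, and without knockdown replicate 1 it was 0.070. Tricellulin (MARVELD2), which sits where 3 cells meet, had 80.9 ± 3.76 and 72.1 ± 7.34 and did not pass (adjusted p = 0.37).

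The scaffolds of the tight junction differed among themselves. Cingulin (CGN, ENSG00000143375, chr1:151510510-151538692), which links ZO proteins to the actomyosin ring, had the largest fall of the genes that passed. It stood at 341, 349 and 379 normalised counts in control and at 198, 188 and 231 in knockdown, where the highest knockdown library was well below the lowest control. The log2 fold change was -0.80 (SE 0.094, interval -0.999 to -0.59, adjusted p = 1.4e-05), and the DE call was lost when glmTreat required the fold change itself to exceed 1.5. Its paralogue CGNL1 stood at 86.7 ± 1.37 in control and 81.8 ± 3.37 in knockdown, a log2 fold change of -0.086 with an interval from -0.36 to 0.19 (adjusted p = 0.60). ZO-1 (TJP1), the main scaffold by level, did not pass either: 4905, 5136 and 5257 in control overlapped 4966, 4836 and 4978 in knockdown. Its log2 fold change was -0.049 (interval -0.13 to 0.033, adjusted p = 0.31), and 0.013 with library size alone. ZO-3 (TJP3) had only 79 counts over the 6 libraries, with 31.3% of its stranded counts on the other strand, and its log2 fold change of -0.64 had an adjusted p of 0.091. The share of CGN in the summed level of the 4 scaffolds went from 8.77% ± 0.25 to 5.45% ± 0.50.

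The 3 tested genes of the JAM and CXADR group, which leave out JAM2, fell by adjusted p, where 25.0% of all tested genes did. CXADR (ENSG00000154639, chr21:17513043-17593579), the coxsackievirus and adenovirus receptor, a homophilic adhesion protein of the tight junction, stood at 11651, 12594 and 11477 normalised counts in control. In knockdown it stood at 7810, 8012 and 8004, which is 66.7% of control and far outside the control range. Its log2 fold change was -0.584 (SE 0.041, adjusted p = 1.2e-07), just short of the cutoff of 0.585, so that it counts among the genes lower by adjusted p and not among the DE genes. With DESeq2 it was -0.588 and with median-of-ratios size factors -0.585, on the other side of the cutoff. Without control replicate 1, control replicate 3, knockdown replicate 2 or knockdown replicate 3 it also passed the cutoff, at -0.600, -0.608, -0.588 and -0.587. JAM-A (F11R) fell from 1648 ± 48.5 to 1429 ± 35.8 (log2 fold change -0.21, SE 0.043, adjusted p = 0.0014). JAM-C (JAM3) fell from 1720 ± 80.1 to 1511 ± 60.4 (log2 fold change -0.18, SE 0.047, adjusted p = 0.0058). The summed level of this type was 73.5% of control, the lowest of the 8 types, and CXADR made up 67.0% ± 0.79 of it in control and 60.8% ± 0.71 in knockdown.

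Limits of the counting bear on these receptors. Only 60.1% of the bases of the canonical F11R transcript could be counted, since an overlapping read-through gene shares the rest. The level of F11R, and with it the summed level and the shares of this type, rests on those countable bases. It is less certain than the levels of the other genes of this type. At JAM3 the unstranded column held 5256 counts, fewer than the 9673 of the stranded column, and reads of the other strand made up 5.34% of its stranded counts.

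**Figure D3:**
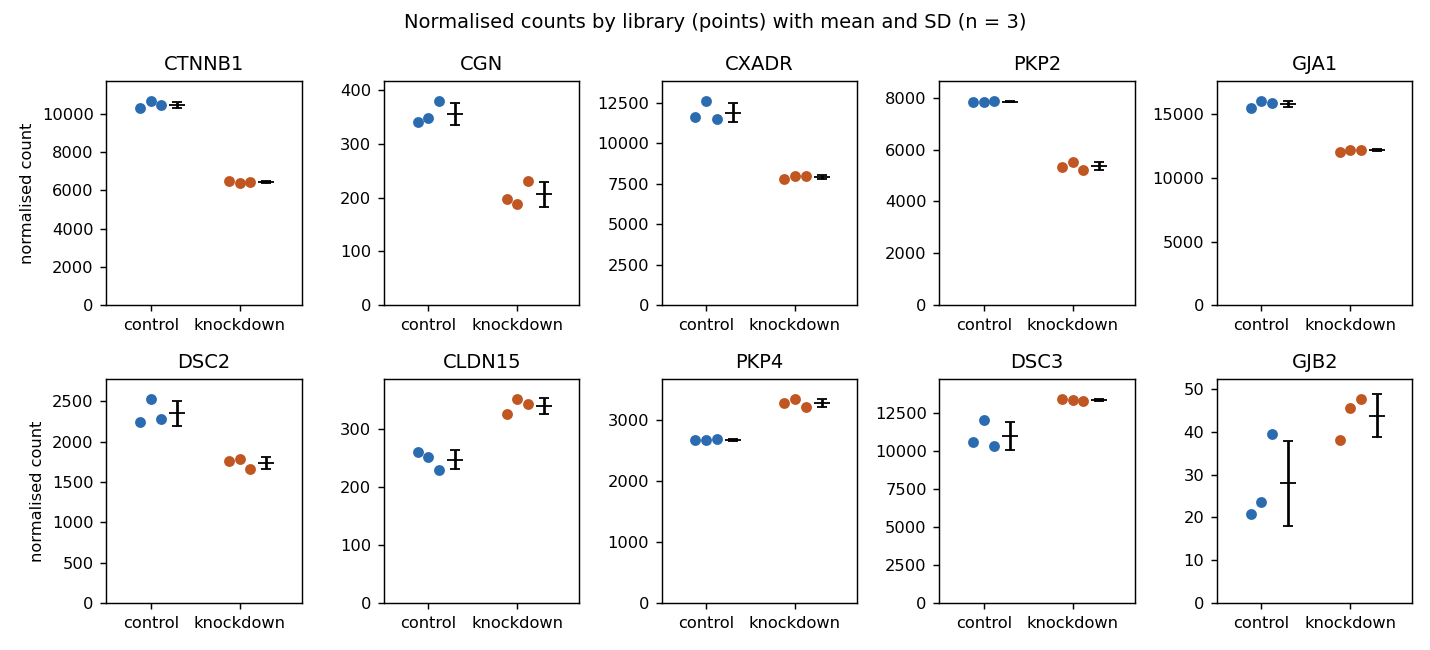
Normalised counts (vertical axis, from 0) of 10 junction genes in each library, with the mean and SD of each group (n = 3). CTNNB1, CGN, CXADR, PKP2, GJA1 and DSC2 are lower in all 3 knockdown libraries, CLDN15, PKP4 and DSC3 are higher in all 3, and for GJB2 the highest control library (39.4) overlaps the lowest knockdown library (38.1).

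Within the desmosomal plaque, the plakophilins went in opposite directions. PKP2 (ENSG00000057294, chr12:32790745-32896798), the plakophilin of simple epithelia and of heart muscle, stood at 7844, 7851 and 7859 normalised counts in control and at 5339, 5531 and 5219 in knockdown. The control libraries were nearly identical and the knockdown libraries all lower (log2 fold change -0.55, SE 0.036, adjusted p = 6.7e-08). The SD of PKP2 in control (7.69) was below counting error alone, so it understates the uncertainty. PKP4, a p120-related armadillo protein of desmosomes and adherens junctions, stood at 2664, 2673 and 2688 in control and at 3279, 3342 and 3218 in knockdown. It rose by 0.29 on the log2 scale (SE 0.036, adjusted p = 2.0e-05). PKP3 was higher in all 3 knockdown libraries (309, 334 and 309 against 293, 262 and 267), with a log2 fold change of 0.21 and an adjusted p of 0.051, and it did not pass. It passed with library size alone (adjusted p = 0.017), with at least 10 counts in every library (0.049) and without control replicate 1 (0.033). The share of PKP2 in the summed level of plaque and envelope genes went from 49.9% ± 0.49 to 38.8% ± 0.42, and that of PKP4 from 15.6% ± 0.20 to 21.8% ± 0.048.

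Plakoglobin (JUP), the catenin of desmosomes and a close relative of beta-catenin, did not pass. It stood at 1996, 1998 and 1842 in control and at 1828, 1911 and 1892 in knockdown, with overlap (log2 fold change -0.052, interval -0.15 to 0.043, adjusted p = 0.35). With library size alone its log2 fold change was 0.011. PERP, a p53 target needed for desmosome assembly, rose from 1019 ± 36.03 to 1224 ± 69.2 (log2 fold change 0.27, SE 0.053, adjusted p = 0.00089). Periplakin (PPL), a plakin of the cornified envelope, fell from 2161 ± 78.1 to 1906 ± 55.7 (log2 fold change -0.18, SE 0.042, adjusted p = 0.0032). Its partner envoplakin (EVPL) had 260 ± 23.9 and 274 ± 28.2 and did not pass (adjusted p = 0.57). In this type 2 of 7 tested genes rose, 2 fell and 3 did not pass. The 28.6% in each direction were near the 23.3% higher and 25.0% lower among all tested genes.

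The desmosomal cadherins split as well. DSC2, the desmocollin of simple epithelia, stood at 2242, 2526 and 2278 normalised counts in control and at 1762, 1785 and 1654 in knockdown (log2 fold change -0.44, SE 0.051, adjusted p = 1.3e-05). DSC3, the desmocollin of the basal layers of stratified epithelia, stood at 10584, 12050 and 10356 in control and at 13423, 13351 and 13325 in knockdown (log2 fold change 0.28, SE 0.050, adjusted p = 0.00043). For both genes the groups were apart. DSG2, the widespread desmoglein of simple epithelia, had 9887 ± 317 and 10203 ± 401 (log2 fold change 0.046, interval -0.041 to 0.13, adjusted p = 0.37), and with library size alone its adjusted p was 0.025. The summed level of the 3 cadherins was 109% of control, the only one of the 8 types with a sum above control. Its libraries narrowly did not overlap between groups (100.5 to 110.6 RPKM in control and 111.3 to 115.8 in knockdown). That separation rests on the transcript lengths assumed, which weight the 3 genes in the sum. DSC2 made up 5.64% ± 0.074 of the sum in control and 3.80% ± 0.072 in knockdown, and DSC3 42.9% ± 1.49 and 47.7% ± 0.94.

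Among the catenins, beta-catenin had the smallest adjusted p of all listed junction genes. CTNNB1 (ENSG00000168036, chr3:41194741-41260096) stood at 10324, 10645 and 10456 normalised counts in control and at 6506, 6362 and 6433 in knockdown. Its level was 61.4% of control in knockdown (log2 fold change -0.70, SE 0.034, interval -0.78 to -0.63, adjusted p = 5.3e-09), and the SDs of 161 and 71.8 were small beside the difference. CTNNA1, alpha-E-catenin, fell less, from 22081 ± 3.97 to 19553 ± 85.3 (log2 fold change -0.18, SE 0.032, adjusted p = 0.00054). For p120-catenin (CTNND1), which stabilises cadherins at the membrane, the libraries overlapped at 448, 457 and 411 in control and 431, 407 and 425 in knockdown (log2 fold change -0.059, interval -0.21 to 0.090, adjusted p = 0.51). With library size alone the log2 fold change of CTNND1 was 0.0030. Only 21.4% of the bases of its canonical transcript could be counted, because 2 read-through genes overlap it, so the level plotted for CTNND1 rests on those bases alone and is not ranked against the other catenins.

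Of the connexins, the main one fell. GJA1 (connexin 43), the most widespread gap junction protein, stood at 15507, 16003 and 15863 normalised counts in control and at 12064, 12213 and 12181 in knockdown. The groups were far apart (log2 fold change -0.38, SE 0.033, adjusted p = 1.1e-06), and GJA1 made up 91.4% ± 0.33 of the summed connexin level in control and 90.0% ± 0.23 in knockdown. GJC1 (connexin 45) fell from 3608 ± 214 to 3220 ± 76.7 (log2 fold change -0.16, SE 0.045, adjusted p = 0.0092). Its adjusted p was 0.064 with library size alone and 0.051 without knockdown replicate 2.

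GJB2 (connexin 26, ENSG00000165474, chr13:20187463-20192938), a connexin of epithelia and the inner ear, was the only listed gene that was DE and higher, at a level under 1 RPKM. It stood at 20.8, 23.7 and 39.4 normalised counts in control and at 38.1, 45.6 and 47.6 in knockdown. One control library thus lay inside the knockdown range. The log2 fold change was 0.64 (SE 0.24, interval 0.12 to 1.16, adjusted p = 0.043). The call was lost with DESeq2 (adjusted p = 0.12) and when any of 4 libraries was left out, with an adjusted p of 0.18 without control replicate 1, 0.096 without control replicate 2, 0.11 without knockdown replicate 2 and 0.11 without knockdown replicate 3.

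The opposite movements can also be read within each library, as the ratio of the counts of 2 genes, into which no scaling between libraries enters. The 9 pairs were chosen after the values were seen and are given without a test. The ratio of DSC3 to DSC2 counts was 4.72, 4.77 and 4.55 in control and 7.62, 7.48 and 8.06 in knockdown. PKP4 to PKP2 was 0.340, 0.340 and 0.342 in control and 0.614, 0.604 and 0.617 in knockdown. CLDN15 to CLDN11 went from a mean of 0.0200 ± 0.0015 to 0.0339 ± 0.0029. These 3 ratios were higher in every knockdown library than in any control library, and so was PKP3 to PKP2 (0.0350 ± 0.0021 and 0.0592 ± 0.0012).

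Beta-catenin had a lower ratio to both genes it was set against, CTNNA1 and JUP, in all 3 knockdown libraries. CTNNB1 to CTNNA1 was 0.467, 0.482 and 0.474 in control and 0.331, 0.327 and 0.329 in knockdown. CTNNB1 to JUP went from 5.39 ± 0.26 to 3.43 ± 0.12. Relative to TJP1, CXADR went from 2.34 ± 0.14 to 1.61 ± 0.042 and CGN from 0.0699 ± 0.0021 to 0.0418 ± 0.0041. GJA1 to GJC1 changed least of the 9 pairs, from 4.38 ± 0.20 to 3.78 ± 0.11. The ratios are of counts, not of levels per length, and they compare groups for the same pair only.

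**Figure D4:**
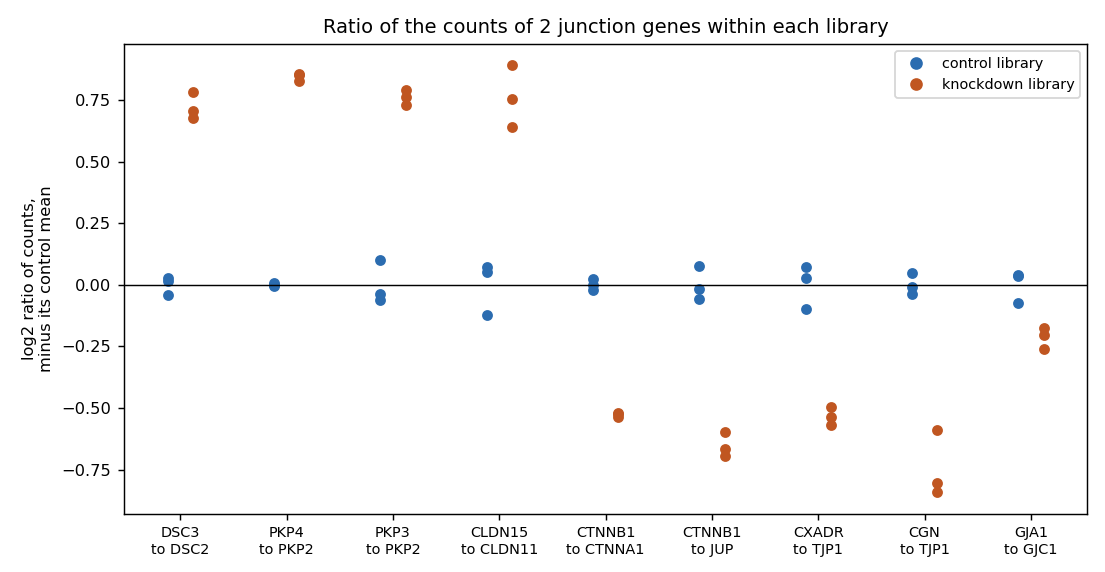
Log2 ratio of the counts of 2 junction genes within a library, minus its mean over the control libraries (vertical axis), for 9 pairs of genes and 6 libraries. In the first 4 pairs all knockdown libraries (orange) lie above the control libraries (blue), and in the other 5 pairs all lie below.

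Another 79 genes of the same kinds of junction, also listed with earlier results of these data known, moved in both directions. Of these, 39 were tested, 11 rose and 15 fell by adjusted p (28.2% and 38.5%, against 23.3% and 25.0% of all tested genes), 13 did not pass, and the median log2 fold change was -0.036. DE genes numbered 3 higher and 5 lower (20.5% of the 39, against 11.7% of all tested genes). The 3 higher ones were YBX3 (ZONAB, a Y-box factor that binds ZO-1), from 3328 ± 243 to 6453 ± 208 normalised counts (log2 fold change 0.95, SE 0.050, adjusted p = 1.1e-08), ARHGEF2 and MAGI2. ARHGEF2 (GEF-H1, a RhoA exchange factor that binds cingulin) rose from 1896 ± 46.2 to 3388 ± 186 (log2 fold change 0.84, SE 0.046, adjusted p = 1.5e-08). The scaffold MAGI2 rose from 193 ± 7.47 to 294 ± 13.3 (log2 fold change 0.60), with 10.96% of its stranded counts on the other strand, and was short of the cutoff at 0.57 without control replicate 2 and without knockdown replicate 3. YBX3 and ARHGEF2 rose, CGN fell and TJP1 did not pass, and a link between these genes was not tested.

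Among the lower ones were PRKCI, CLDN10, ILDR2 and PALS1. PRKCI, the atypical protein kinase C of the polarity complex, fell from 11136 ± 279 to 6253 ± 164 (log2 fold change -0.83, SE 0.037, adjusted p = 2.5e-09). CLDN10, a further pore-forming claudin, fell from 73.4 ± 9.02 to 42.9 ± 6.50 (log2 fold change -0.79, SE 0.17, adjusted p = 0.0020), with 46.2% of its stranded counts on the other strand and a log2 fold change of -0.66 in the unstranded column. ILDR2, of the angulin family at tricellular junctions, fell from 2238 ± 34.7 to 1360 ± 134 (log2 fold change -0.72, adjusted p = 4.2e-07). PALS1, a polarity scaffold outside the naming rule and added after its values were seen, fell from 4313 ± 191 to 2790 ± 41.9 (log2 fold change -0.63, adjusted p = 6.7e-08). By type and adjusted p, 6 of 22 tested tight junction genes rose and 9 fell (27.3% and 40.9%), against 23.3% higher and 25.0% lower among all tested genes. Of 13 adherens junction adaptors 5 rose and 3 fell (38.5% and 23.1%), and of 4 tested gap junction genes 3 fell (75%) and 0 rose. None of the 6 further desmosome genes, which include DSG1, DSG3, DSC1 and PKP1, had enough counts to be tested.

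**Figure D5:**
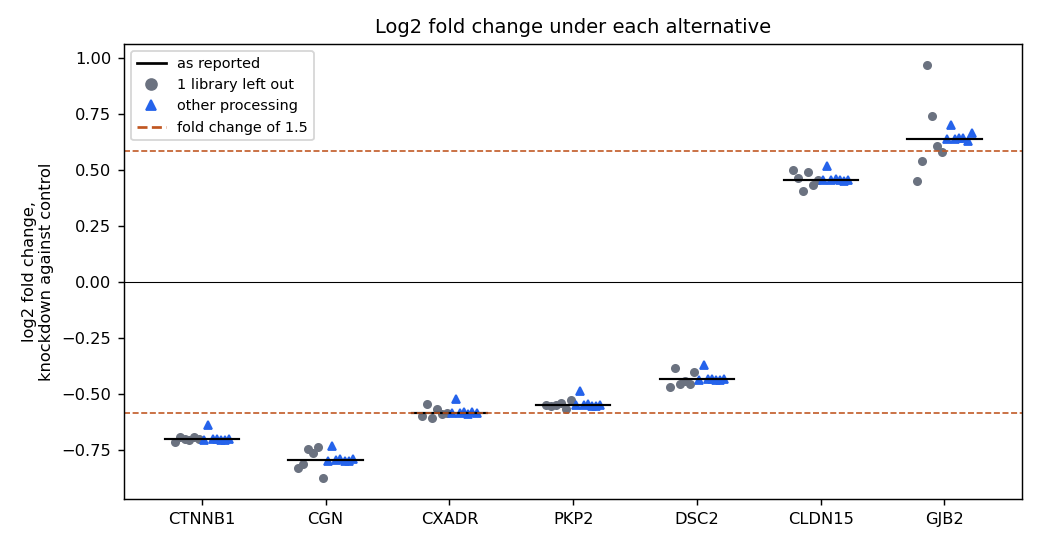
Log2 fold change (vertical axis) of 7 junction genes as reported (black line), with each of the 6 libraries left out in turn (grey circles) and with other processing (blue triangles). CTNNB1 and CGN stay below the dashed line for a fold change of 1.5 throughout, CXADR lies on both sides of it, and GJB2 ranges from 0.45 to 0.97.

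CTNNB1 kept its direction and size in each alternative run, with log2 fold changes between -0.71 and -0.64. For CGN they lay between -0.88 and -0.73, for PKP2 between -0.57 and -0.49, for DSC2 between -0.47 and -0.37, for GJA1 between -0.39 and -0.31, for CLDN15 between 0.41 and 0.52 and for DSC3 between 0.24 and 0.35. Several junction genes have pseudogenes elsewhere in the genome, including CXADR, CTNNA1, GJA1, PERP, PKP4 and OCLN. Since reads mapping to more than 1 place were dropped, the counts of these genes can be incomplete by the same rule in both groups.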

How the data were processed

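RNA-seq of 12Z cells (3 control and 3 LINC01133a siRNA libraries) was used. According to the methods and labels, STAR 2.7.6a was run on paired reads against GRCh38.p13 and GENCODE v36, multi-mapping reads were discarded, and the authors deposited raw gene counts (SAMtools 1.10 is also named). The labels name an NEB poly-A kit and the paper a TruSeq kit. Of the STAR columns, the one opposite to read 1 in strand was taken, holding 94.0% of the stranded counts.

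Genes were kept by filterByExpr (minimum count 10), scaled by TMM (factors of 0.968 to 0.984 in control and 1.02 to 1.03 in knockdown) and tested with edgeR 4.0.16 (R 4.3.3, quasi-likelihood, two-sided, condition as the only term), with Benjamini-Hochberg adjustment over all 15155 genes. DE meant a fold change above 1.5 and an adjusted p below 0.05. Precision is given by SD or SE over 3 libraries per group, at depths of 27742562 to 37551194 counts. For some genes, PKP2 and CTNNA1 in control among them, the SD was below counting error alone and understates the uncertainty. Replicates differed beyond sampling noise, with a chi-square per degree of freedom of 2.22 or more. Control replicate 2 stood apart from control replicates 1 and 3 (12.0 and 13.2), which differed from each other by 3.78. Between knockdown replicates the value was at most 3.52. Lengths, 3′ UTRs and overlaps came from GENCODE v44 on GRCh38. Named were all listed genes, by junction type, and at most 4 further DE genes per direction by size, of which 1 is not reported here. The listed genes, the further genes and the markers were chosen with earlier results of these data known. The test was checked on simulated counts. Alternatives were DESeq2 1.42.0, other scalings and filters, the unstranded column, glmTreat, a replicate block and each library left out. No protein sequences were used here. Intervals are 95% and, for a count of 0, cover counting error only.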

Additional observations from a re-analysis of the deposited data

How the results depend on the processing

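Under most alternatives the counts and directions did not move by more than 1.5 times. The listed genes DE and higher went from 1 to 0 with DESeq2 and with glmTreat against a fold change of 1.5, and ranged from 0 to 1 with 1 library left out. With glmTreat, the listed genes DE and lower went from 2 to 1, the further genes DE and lower from 5 to 1 and all DE genes from 1778 to 578, as this test asks that the fold change itself exceeds the cutoff. With library size alone, the further genes DE and lower numbered 3, without PALS1 (-0.57) among others. The median log2 fold change of the listed genes, -0.169 as reported, was -0.106 with library size alone, -0.159 with at least 10 counts in every library, -0.163 with the unstranded column, and between -0.183 and -0.152 with 1 library left out. Library size alone moved the median of all tested genes to 0.065 and the share of DE genes that were higher from 45.2% to 55.9%. Under it, the log2 fold changes of TJP1, JUP and CTNND1, none of which passed, reversed to 0.013, 0.011 and 0.0030, and that of EVPL ranged from -0.00027 (without knockdown replicate 1) to 0.16 with 1 library left out. The causes were not tested.

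The same replicate numbers in both groups did not pair the libraries (correlations of deviations of -0.015, 0.0049 and 0.057). With the number as a replicate block, 1 listed gene was DE and higher and 2 were DE and lower, as without it, 5 and 14 passed the adjusted p, 4 further genes were DE and higher, and 1747 genes were DE in all. Lengths over all exonic bases were added as an alternative after seeing the data. Depth limits CLDN4, TJP3, GJB2 and the genes not tested.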
